A study of Triticum monococcum with 54 samples.

Results

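The 32 genes described here were those whose transcripts were higher in einkorn grain fed nitrogen (N) without sulfur (S) than in grain fed both. They were chosen from the 18308 accessions of the N+S- table, of 32047 in the complete tables. Of those, 9659 were not in the N-S+ table as used here, and 9619 were left once the 40 with the highest share of counts were set aside. A mean of at least 5 CPM (counts as a share of the scaled library total) was required in N+S- grain at each of the 4 stages from 300 to 600 °Cd, which 3173 accessions met. The log2 ratio of N+S- to N+S+ grain, with 1 CPM added to both, also had to be above 0 at each stage, which 268 met, and to average at least 0.6, which 32 met. The upper limit of 60 genes was therefore not reached. The question followed here is how these genes behaved in N-S- grain, which entered the choice through the 40 most abundant accessions and through the scaling, computed over all 42 libraries. With the scaling over the 24 N+S- and N+S+ libraries alone, 29 of the 32 were chosen and no other gene.

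The study sequenced polyadenylated RNA from whole grain of Triticum monococcum, a diploid wheat, at 6 stages counted in degree days (°Cd) after flowering. N-S- plants were given neither N nor S. The solution of N+S- plants held 6 mM N and no S, and that of N+S+ plants 6 mM N plus 2 mM S. The solutions started at 200 °Cd, so N-S- grain of 100 and 200 °Cd carries the label but grew before them, and the other treatments begin at 300 °Cd. All plants were of 1 accession, and each of the 14 groups held 3 biological replicates, 42 libraries of the 54 in the series.

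Sulfur reaches a developing cereal grain mainly as sulfate, glutathione and S-methylmethionine, and is built there into cysteine and methionine. Plant cells short of sulfur raise sulfate transporters and enzymes of sulfate assimilation, and draw on their sulfur reserves. Wheat endosperm under such shortage makes fewer sulfur-rich and more sulfur-poor storage proteins, the more so when N is plentiful. The deposited files pair no accession with a name, a product or a sequence, so none of the 32 can be placed in these pathways here, and their roles, the markers of the grain's tissues and their sequences are not given.

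Library totals over the 18308 accessions ran from 803951 at 400 °Cd to 2669859 at 100 °Cd. The N-S- libraries of 500 °Cd stood apart. Across genes, their log2 CPM correlated with each other at 0.834 to 0.85, against at least 0.897 within every other group, and they had 7394 to 8223 accessions detected, against at least 8292 elsewhere. The stages 100 to 300 °Cd ran on sequencing lane 3, all libraries of 400 °Cd and the S-free libraries of 500 °Cd on lane 4, and N+S+ grain of 500 °Cd and all grain of 600 °Cd on lane 5. In N-S- grain the steps from 300 to 400 and from 500 to 600 °Cd therefore cross lanes, and there stage and lane cannot be told apart. The grain was sequenced whole, so fewer cells of a type and less RNA per cell cannot be told apart either.

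By the values that chose them, a few of the 32 stood far above the rest. TmLoc020895 had the largest mean log2 ratio of N+S- to N+S+ grain, 4.99, followed by TmLoc014099 at 3.93. In 19 other members the ratio was under 1 on this scale. The last genes inside the size limit were TmLoc014402 at 0.622 and TmLoc022810 at 0.613, and the first outside were TmLoc016404 at 0.598 and TmLoc025288 at 0.58. At the floor, TmLoc019703 was inside with a lowest N+S- group mean of 5.26 CPM, and TmLoc013459 outside with 4.34 CPM. The 32 had a median length of 1155 bases, against 2149 in the 3173 accessions past the floor and 1717 in the 8704 accessions tested. Their covered length, a column the files do not define, was a median of 63% of the length, against 50.9% and 59.5%.

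In N-S- grain the members differed widely in level. TmLoc015925 was the most abundant, at a mean of 747 CPM over the 18 N-S- libraries, and TmLoc024979 came next at 325 CPM. At the other end, TmLoc017885 averaged 5.69 CPM. Per kilobase of length, TmLoc015925 was again highest at 349 CPM, and TmLoc014402 was lowest at 2.88 CPM. Together the 32 took a small share of the N-S- counts. It was lowest at 600 °Cd, 0.282% ± 0.0428 (SD, n = 3), and highest at 500 °Cd, 0.333% ± 0.0498 (SD, n = 3), within the spread of the libraries. In N+S- grain, where the members were chosen to be high, the lowest share was 0.388% ± 0.0501 (SD, n = 3) at 300 °Cd and the highest 0.56% ± 0.0933 (SD, n = 3) at 400 °Cd. N+S+ grain, where they were chosen to be low, had 0.159% ± 0.00599 (SD, n = 3) as its lowest share, at 600 °Cd, and 0.198% ± 0.0114 (SD, n = 3) as its highest, at 400 °Cd.

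The members followed several courses in N-S- grain, shown in the map of stage means. Counted by the stage of the highest mean, 4 members peaked at 100 °Cd, 5 at 200 °Cd, 5 at 300 °Cd, 3 at 400 °Cd, 9 at 500 °Cd and 6 at 600 °Cd. The 9 at 500 °Cd are 28.1% of the members, against 11.4% of the accessions past the floor, and this stage is that of the libraries that stood apart. At 100 °Cd the shares were 12.5% and 23.5%, and at 600 °Cd 18.8% and 27.1%. These are descriptions of means, without a test. The most abundant member with its peak at 100 °Cd was TmLoc013914, at 72.4 ± 6.76 CPM (SD, n = 3) there and 29.9 ± 11 CPM (SD, n = 3) at 500 °Cd.

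**Figure D1:**
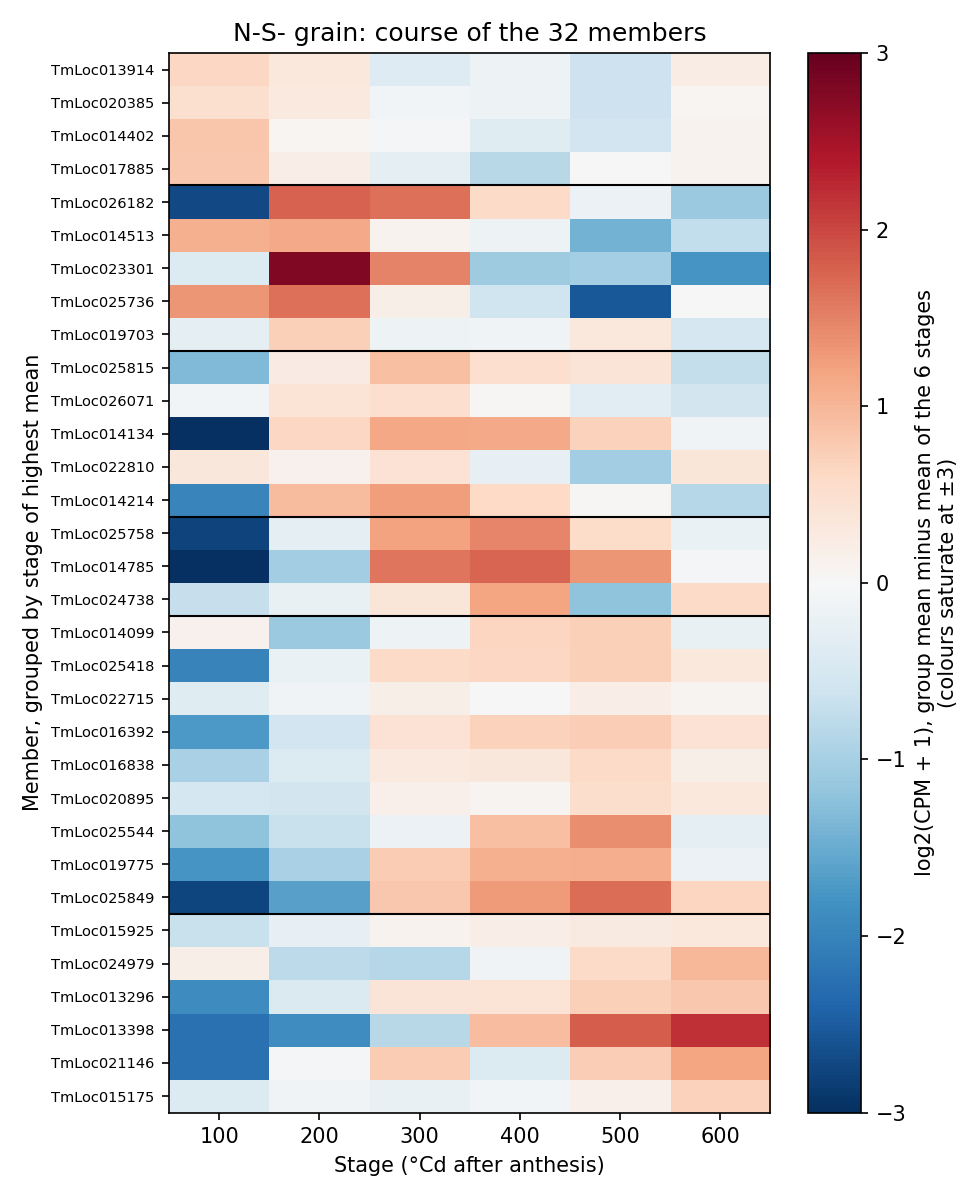
Stage means of the 32 members in N-S- grain, as log2(CPM + 1) minus the member's mean over 6 stages (columns: stage in °Cd after anthesis; rows: members, grouped by the stage of the highest mean and ordered by abundance within a group; n = 3 libraries per stage). Most rows are blue at 100 °Cd, and the rows of TmLoc014785 and TmLoc025758 turn from blue to red between 200 and 300 °Cd.

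Between 100 and 200 °Cd, before any solution was given, 15 members rose and 2 fell, out of 32 tested. TmLoc014134 rose from 0, 0.417 and 0.195 CPM in the 3 libraries at 100 °Cd to 20.8, 20.1 and 18.4 CPM at 200 °Cd. The libraries of the stages did not overlap, and the gene went from 3 counts in all to 172. Its fitted log2 change was 6.14 ± 0.62 (SE, edgeR adjusted p = 1.91e-11). With a single library left out it ran from 5.66, without N-S- replicate 1 of 100 °Cd, to 6.76, without replicate 2. TmLoc026182 rose from 5.46, 3.75 and 4.88 CPM to 115, 138 and 125 CPM, again without overlap. That was a 26.2-fold rise (log2 4.71 ± 0.29, edgeR adjusted p = 7.48e-19).

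TmLoc014099 and TmLoc024979 fell over the same step. TmLoc014099 had 282, 232 and 267 CPM at 100 °Cd and 94.1, 95.7 and 140 CPM at 200 °Cd, so all 3 later libraries lay below the earlier ones. It was 2.38-fold lower (log2 -1.25 ± 0.27, edgeR adjusted p = 0.000286). TmLoc024979 had 315, 322 and 355 CPM and then 157, 171 and 179 CPM, also without overlap. It was 1.97-fold lower (log2 -0.98 ± 0.19, edgeR adjusted p = 7e-05).

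Over all 8704 genes tested, 15.2% were called higher at 200 than at 100 °Cd and 8.25% lower, and among the accessions past the floor 17.2% and 8.45%. The members' shares were 46.9% and 6.25%. Their median log2 change was 0.58, against -0.01 over all genes tested and 0.04 past the floor. Of the 32 changes 24 were positive (75%), against 48.6% of all genes tested and 53.2% past the floor. Both stages ran on lane 3. The floor concerns later N+S- grain, so a member could be near 0 at 100 °Cd but not absent from N+S- grain later. It sets no lower bound for later N-S- grain. The accessions past the floor share that limit.

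From 200 to 300 °Cd, the step on which the solutions began to be given, 11 members rose and 1 fell. TmLoc014785 had 30, 36.8 and 20 CPM at 200 °Cd and 203, 178 and 180 CPM at 300 °Cd. Its libraries did not overlap, and it was 6.54-fold higher (log2 2.71 ± 0.29, edgeR adjusted p = 9.67e-11). TmLoc025849 was barely present at the earlier stage, with 4, 1 and 7 counts, and had 32, 13 and 21 counts at 300 °Cd. In CPM that was 1.32 ± 0.938 (SD, n = 3) and 11.6 ± 5.08 (SD, n = 3), an 8.24-fold rise (log2 3.04 ± 0.65, edgeR adjusted p = 0.00033).

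TmLoc023301 was the 1 member that fell on this step. It had 57.5, 58.9 and 37.2 CPM at 200 °Cd and 21, 11.8 and 28.3 CPM at 300 °Cd, with no overlap. It was 2.47-fold lower (log2 -1.31 ± 0.47, edgeR adjusted p = 0.0375), and this call was lost without any 1 of the first 2 libraries of either stage, at adjusted p of 0.0871 to 0.202. Over all genes tested 11.9% were called higher and 9.69% lower, and past the floor 16.2% and 8.45%, against 34.4% and 3.12% of the members. The median member change was 0.45 on the log2 scale, against -0.02 over all genes tested. This step too lay within lane 3. With DESeq2 size factors in edgeR the split was 11 higher and 4 lower. These factors moved the median over all genes as well, from -0.02 to -0.1, and the share of all genes called was not counted with them.

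**Figure D2:**
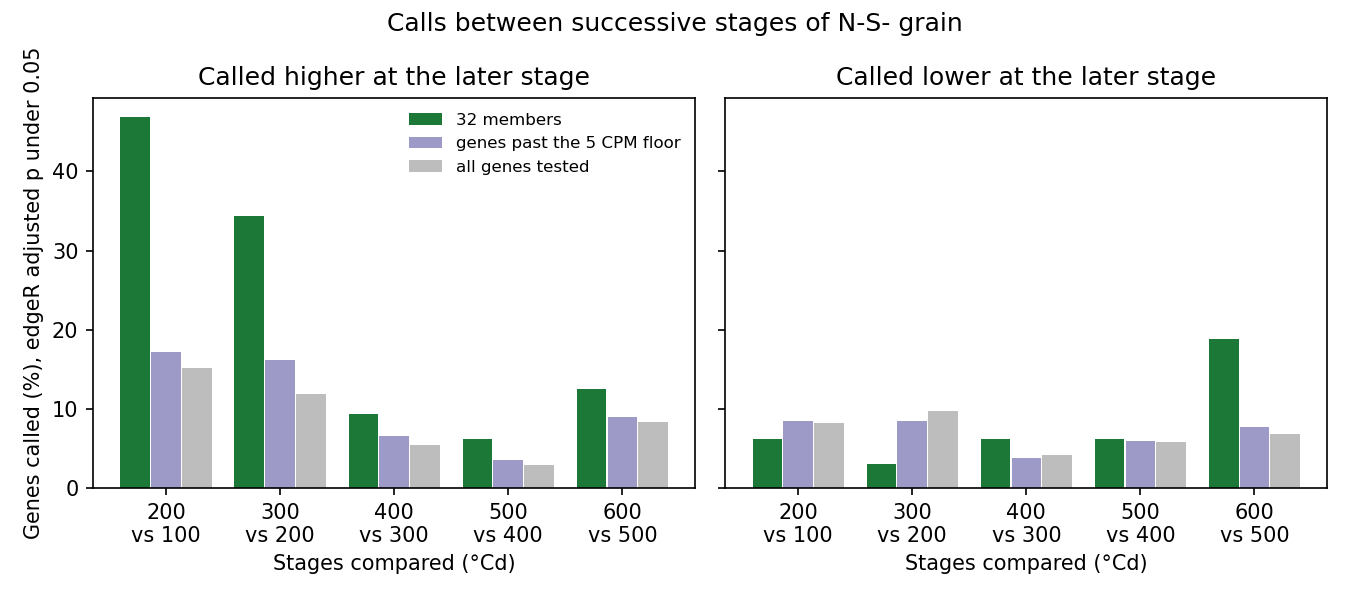
Share of genes called between successive stages of N-S- grain (bars, in % of the genes of each set; left panel higher and right panel lower at the later stage; 3 libraries per stage, edgeR adjusted p under 0.05). For calls of higher level the members stand at 46.9% and 34.4% on the first steps, above the 17.2% and 16.2% of the accessions past the floor, and at 18.8% for calls of lower level on the last step.

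Fewer members were called on each of the next steps, 5 to 400 °Cd and 4 to 500 °Cd, and 10 on the step to 600 °Cd. Between 300 and 400 °Cd 3 rose and 2 fell. TmLoc013398 had 21, 27.5 and 19.9 CPM at 300 °Cd and 76.1, 67.9 and 91.7 CPM at 400 °Cd, without overlap, a 3.53-fold rise (log2 1.82 ± 0.33, edgeR adjusted p = 5.83e-05). TmLoc014099 rose again, from 161, 176 and 305 CPM to 336, 330 and 456 CPM, by 1.78-fold (log2 0.83 ± 0.27, edgeR adjusted p = 0.0406). That call was lost without any 1 of 5 of the 6 libraries compared, at adjusted p of 0.0615 to 0.251.

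The genes that fell between 300 and 400 °Cd had both peaked at 200 °Cd. TmLoc023301 fell to 3.51, 3.02 and 1.37 CPM at 400 °Cd, which is 3, 2 and 1 counts, and was 7.33-fold lower than at 300 °Cd (log2 -2.87 ± 0.71, edgeR adjusted p = 0.00411). TmLoc026182 fell from 123, 88.6 and 137 CPM to 52.7, 55.8 and 53.4 CPM, by 2.11-fold (log2 -1.08 ± 0.27, edgeR adjusted p = 0.00392). For both, every library at 400 °Cd lay below every library at 300 °Cd. Over all genes tested 5.51% were called higher and 4.22% lower on this step, and past the floor 6.65% and 3.88%, close to the members' 9.38% and 6.25% at such small counts. Without N-S- replicate 3 of 400 °Cd 1 member was higher and 2 were lower.

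Between 400 and 500 °Cd, both on lane 4, 2 members rose and 2 fell. This step rests on the N-S- libraries that stood apart. TmLoc024738 fell from 14.1, 18.1 and 13.7 CPM to 2.16, 3.24 and 0.86 CPM, which rests on 12, 12 and 10 counts against 2, 3 and 1. It was 7.35-fold lower (log2 -2.88 ± 0.71, edgeR adjusted p = 0.0061), with no overlap, but was not called in a fit to these 2 stages alone (edgeR adjusted p = 0.126). TmLoc025758 fell from 540, 385 and 450 CPM to 242, 232 and 251 CPM, by 1.9-fold (log2 -0.93 ± 0.24, edgeR adjusted p = 0.00907). Its groups did not overlap either, and without N-S- replicate 1 of 400 °Cd it lost its call (adjusted p = 0.0912). TmLoc013398 and TmLoc024979 were the members that rose, by 1.89-fold and 1.62-fold (edgeR adjusted p = 0.0432 and 0.0187), but their libraries overlapped. Over all genes tested 2.98% were called higher and 5.86% lower, and past the floor 3.59% and 6.02%, against 6.25% of the members each way. The members' count was 1 without N-S- replicate 1 and 2 without replicate 2 of 400 °Cd.

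Between 500 and 600 °Cd 4 members rose and 6 fell. TmLoc014785 fell from 147, 170 and 145 CPM to 36.8, 89.4 and 50.6 CPM, by 2.66-fold (log2 -1.41 ± 0.29, edgeR adjusted p = 0.000513), without overlap. TmLoc025544 fell from 43.2, 46.5 and 39.5 CPM to 11.5, 13.2 and 13.7 CPM, by 3.39-fold (log2 -1.76 ± 0.43, edgeR adjusted p = 0.00336), also without overlap. Both had higher means at 400 and 500 °Cd than at 600 °Cd.

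The steepest called rises on this step started from very low values in the N-S- libraries of 500 °Cd. TmLoc025736 had no count in these 3 libraries and 11, 4 and 5 counts at 600 °Cd, at least 4.84-fold higher if 500 °Cd is set at a floor of 3 counts for the group (edgeR adjusted p = 0.0152). Without N-S- replicate 1 of 600 °Cd it was not called (edgeR adjusted p = 0.0767). TmLoc024738 rose from its 2, 3 and 1 counts to 8, 11 and 22 counts, 5.77, 8.55 and 15 CPM, by 4.68-fold (log2 2.23 ± 0.71, edgeR adjusted p = 0.0256). That call was lost without N-S- replicate 1 or 3 of 500 °Cd (adjusted p = 0.0578 and 0.0971) or replicate 3 of 600 °Cd (adjusted p = 0.154). Over all genes tested 8.39% were called higher and 6.9% lower, past the floor 9.05% and 7.78%, against 12.5% and 18.8% of the members. The median member change was -0.26 on the log2 scale, also with TmLoc025736 at its bound, against 0.05 over all genes tested. This step crosses lanes and rests on the same libraries of 500 °Cd, and it had 4 or 5 calls without N-S- replicate 1 or 3 of 600 °Cd. With DESeq2 size factors in edgeR the split was 2 higher and 7 lower, and the median over all genes moved from 0.05 to 0. In a fit to these 2 stages alone, which tested 23 members, the split was 0 higher and 4 lower. The share of all genes called was not counted under either alternative.

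The same steps were read library by library. On the step to 200 °Cd all 3 later libraries lay above all 3 earlier ones in 15 members and below them in 3, against 23% and 21.5% of all genes tested. On the step to 300 °Cd this was 15 and 4 members, against 21.8% and 24.1%. On the next steps it was 4 above and 4 below (13.4% and 17.8% of all genes tested), 1 and 5 (6.76% and 11.6%) and 4 and 8 (15.7% and 8.51%). In the other members the libraries of the stages overlapped.

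The levels of N-S- grain can be set beside those of the groups that chose the members. N-S- grain shares no library with them, but each ratio to N+S+ or N+S- grain does use libraries of the choice. A low N+S+ value raises the first ratio and a high N+S- value lowers the second. The counts, ratios and p-values of these comparisons that follow are therefore descriptions and support nothing about the members. Of the 32, the N-S- mean lay between the N+S+ and N+S- means in 21 at 300 °Cd, in 26 at 400, in 19 at 500 and in 26 at 600 °Cd. It lay above the N+S- mean in 8, 3, 7 and 3 members and below the N+S+ mean in 3, 3, 6 and 3. At 300 °Cd the median level over the members was 21 CPM with N+S+, 27.8 CPM with N-S- and 33 CPM with N+S-. At 600 °Cd they were 14.5, 22.1 and 46.6 CPM.

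**Figure D3:**
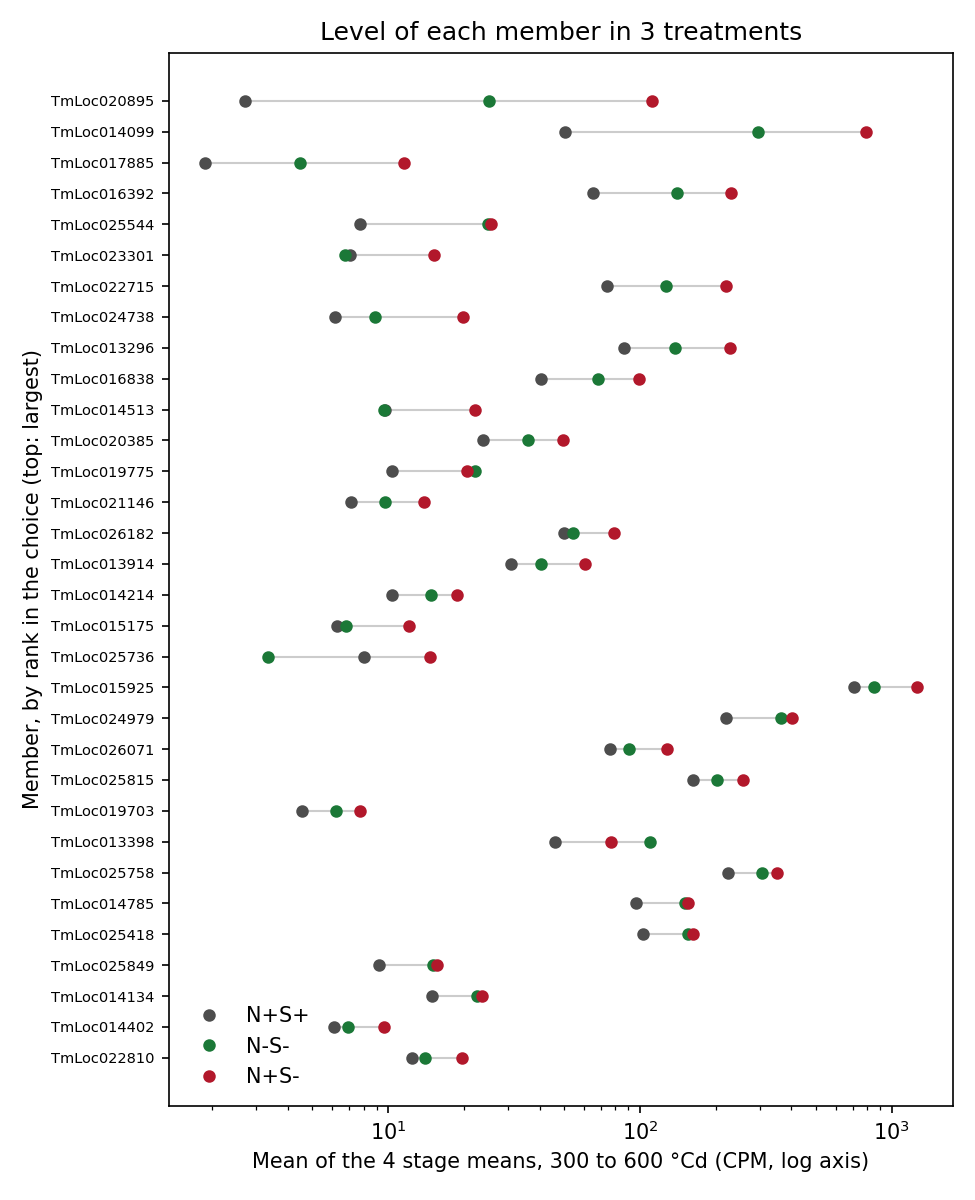
Mean of the 4 stage means from 300 to 600 °Cd for each of the 32 members in 3 treatments (x axis: CPM, logarithmic; rows: members by rank in the choice, the largest at the top; each mean is of 12 libraries). The N-S- point lies left of the N+S+ point in TmLoc025736 and, by little, in TmLoc023301 and TmLoc014513, and right of the N+S- point in TmLoc013398 and TmLoc019775.

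TmLoc014099 showed this ordering at every stage. In N+S+ grain it had 41.1, 18.5 and 26.1 CPM at 300 °Cd and 73.7, 41.8 and 25.4 CPM at 600 °Cd. In N-S- grain it had 161, 176 and 305 CPM and then 155, 266 and 187 CPM. The N+S- values were 349, 305 and 481 CPM and then 771, 779 and 1090 CPM. At all 4 stages every N-S- library exceeded every N+S+ library, and at 400, 500 and 600 °Cd each was under every N+S- library. At 300 °Cd the highest N-S- and the lowest N+S- library met at 305 CPM. Averaged over the 4 stages, its N-S- level was 5.89-fold above that of N+S+ grain (log2 2.56 ± 0.15, edgeR adjusted p = 7.98e-18) and 2.63-fold below that of N+S- grain (log2 -1.4 ± 0.13, edgeR adjusted p = 6.59e-11). Both values use libraries that chose the gene, as do those of TmLoc020895 below. Its N-S- level at 100 °Cd, 260 ± 25.4 CPM (SD, n = 3), before any solution, was above each of its N+S+ libraries of 300 to 600 °Cd. That sets unlike stages side by side, since N+S+ grain has no library before 300 °Cd, and the N+S+ libraries are among those that chose the gene.

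TmLoc020895 was almost absent from N+S+ grain. There it had 3, 4 and 2 counts at 300 °Cd, then 1, 0 and 0 (400 °Cd), 3, 0 and 10 (500 °Cd) and 5, 8 and 9 (600 °Cd). In N-S- grain the levels were 16.7, 19.6 and 32.8 CPM at 300 °Cd, then 17.6, 18.1 and 30.1 (400 °Cd), 8.65, 38.9 and 42.1 (500 °Cd) and 19.5, 28 and 29.4 CPM (600 °Cd). The N+S+ and N-S- libraries overlapped in CPM at 500 °Cd alone among these stages, where the highest N+S+ library had 9.49 CPM. Its N+S- stage means were higher still, rising from 41.1 ± 22.3 CPM (SD, n = 3; 300 °Cd) to 156 ± 45.6 CPM (SD, n = 3; 600 °Cd). At 300 °Cd the N-S- and N+S- libraries overlapped, the highest N-S- library, at 32.8 CPM, lying above N+S- libraries of 28 and 28.4 CPM. Over the 4 stages the fitted log2 difference was 3.71 ± 0.34 from N+S+ (edgeR adjusted p = 4.06e-11) and -2 ± 0.2 from N+S- grain (edgeR adjusted p = 2.46e-10). Without replicate 1 of 400 °Cd, the 1 N+S+ library of that stage with a count, the difference from N+S+ was 4.32. It was 3.57 without N+S+ replicate 2 of 500 °Cd, the lowest value with a single library left out. None of the steps between successive N-S- stages passed the test for this gene, with edgeR adjusted p of 0.184 or more.

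**Figure D4:**
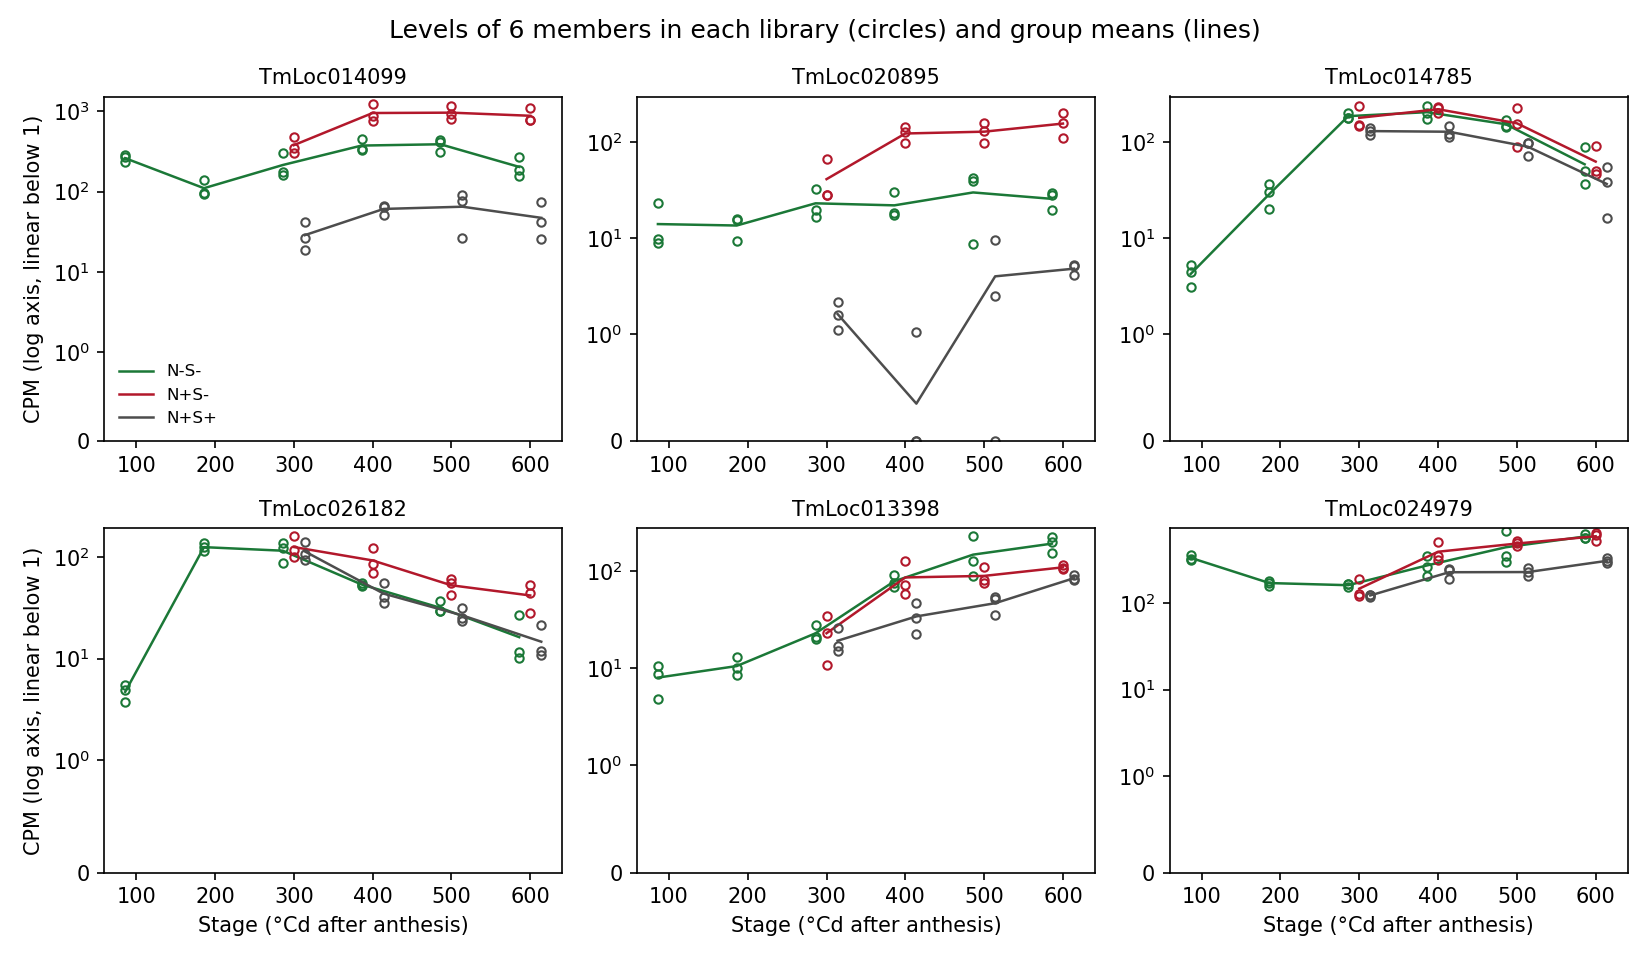
Levels of 6 members in each library (circles) with group means (lines) by stage in °Cd after anthesis (y axis: CPM, logarithmic above 1 and linear below; 3 libraries per group; N-S- green, N+S- red, N+S+ grey, shifted sideways for legibility). From 300 °Cd on, the group means of TmLoc014099 and TmLoc020895 lie at 3 levels. Their N-S- and N+S- libraries meet or overlap at 300 °Cd, and N-S- and N+S+ libraries of TmLoc020895 overlap at 500 °Cd. TmLoc013398 in N-S- grain reaches 153 to 223 CPM at 600 °Cd, above its N+S- libraries.

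TmLoc025736 went the other way in N-S- grain. It had 8, 8 and 16 counts at 300 °Cd, then 0, 3 and 3 (400 °Cd), no count (500 °Cd) and 11, 4 and 5 (600 °Cd). N+S+ grain had 3, 4 and 4 counts (500 °Cd) and 12, 31 and 12 (600 °Cd). Averaged over the 4 stages its fitted difference from N+S+ grain was negative (edgeR adjusted p = 0.0132), but without 500 °Cd, where N-S- grain had no count, it was -1.17 ± 0.43 on the log2 scale and was not called (edgeR adjusted p = 0.247). Nor was it called without N+S+ replicate 2 of 400 °Cd (edgeR adjusted p = 0.0789), or with replicate number 1 or 2 left out of every group (edgeR adjusted p = 0.104 and 0.234). Against N+S- grain it was called lower with and without that stage (edgeR adjusted p = 2.86e-05 and 0.0204). With N-S- grain of 500 °Cd set at that floor, it was at least 12.1-fold lower than with N+S-.

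TmLoc013398 rose in its stage mean on every step of the N-S- course. Its steps between 200 and 500 °Cd were called, and its first and last were not (edgeR adjusted p = 0.488 and 0.429). It had 126, 88.6 and 229 CPM in N-S- grain at 500 °Cd and 200, 153 and 223 CPM at 600 °Cd. In N+S- grain it had 80.6, 76 and 111 CPM and then 104, 116 and 108 CPM, so the groups overlapped at 500 and not at 600 °Cd. The difference between them was not called at either stage (edgeR adjusted p = 0.114 and 0.256).

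Averaged over 300 to 600 °Cd and set against N+S+ grain, 16 members were called higher with N-S- and 1 lower. That is 50% and 3.12% of the 32, against 1.32% and 2.8% of all genes tested. The median difference was 0.58 on the log2 scale, against -0.03 over all genes tested. Of the 32 differences 30 were positive (93.8%), against 46% of all genes tested. Without 500 °Cd, where these treatments were on different lanes, 12 were higher and 0 lower by edgeR, against 0.391% and 0.655% of all genes tested.

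Set against N+S- grain, 0 members were called higher with N-S- and 16 lower, compared with 0.954% and 1.61% of all genes tested. By DESeq2 too 0 were higher and 16 lower, and 20 of the 32 had an unadjusted p under 0.05 by edgeR. Neither of these was counted over all genes. Of the 32 differences 28 were negative, so that 12.5% were positive, against 45.8% of all genes tested. These treatments shared a lane at every stage. Without 500 °Cd 0 members were higher and 12 lower by edgeR, against 0.437% and 0.483% of all genes tested.

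Stage by stage, the N-S- and N+S- levels did not separate by this test at 300 °Cd. There 0 members differed, and 0% of all genes tested. By edgeR 2 members had an unadjusted p under 0.05, which was not counted over all genes. At 400 °Cd 3 members were called lower and 0 higher, against 0.126% and 0.184% of all genes tested. The lower calls numbered 9 at 500 °Cd (3.18% of all genes tested, with 1.29% higher) and 9 at 600 °Cd (0.597%, with 0.23% higher). Every N-S- library lay below every N+S- library in 3, 16, 18 and 17 members in order of stage, against 4.41%, 6.27%, 11.7% and 7.27% of all genes tested.

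Against N+S+ grain, members called higher numbered 3 at 300 °Cd, where 0.0919% of all genes tested were called higher and 0.103% lower. They were 3 again at 400 °Cd (0.218% and 0.184% of all genes tested) and 11 at 500 °Cd (0.977% and 3.54%). At 600 °Cd they were 6 (0.207% and 0.172%), and at each of the 4 stages 0 members were called lower by edgeR. Every N-S- library lay above every N+S+ library in 15, 10, 15 and 10 members in order of stage, compared with 8.59%, 7.44%, 5.34% and 5.92% of all genes tested. Whether these stages differ from each other was not tested.

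The change from 300 to 600 °Cd was compared between N-S- and N+S+ grain, since at each of these stages both were on 1 lane. No member passed this test by edgeR, nor by DESeq2 among the 28 to which it gave an adjusted p, against 0.0345% of all genes tested with a higher and 0.0115% with a lower difference. By edgeR 2 of the 32 had an unadjusted p under 0.05, which was not counted over all genes. The most positive difference was that of TmLoc019703, 1.43 ± 1.03 on the log2 scale (edgeR adjusted p = 0.991). It was 2.06 without N+S+ replicate 3 of 600 °Cd and 1.17 without replicate 1 of that group. The most negative was that of TmLoc025849, -2.04 ± 0.83 (edgeR adjusted p = 0.779), and -3.29 without N+S+ replicate 2 of 300 °Cd, still not called (edgeR adjusted p = 0.343). Without N+S+ replicate 1 of 300 °Cd that difference was -1.59. TmLoc025849 had 17.2, 7.29 and 10.4 CPM at 300 °Cd and 10.8, 10.9 and 8.88 CPM at 600 °Cd in N-S- grain, and 1.05, 8.72 and 2.22 and then 7.46, 18.9 and 16.4 CPM in N+S+ grain. With standard errors of this size, differences of 2-fold in such thinly counted genes were not detectable at this depth.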

How the data were processed

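RNA was sequenced from 54 grain libraries, grouped by title into 18 groups of 3 replicates, of which 42 in 14 groups were used. The authors deposited raw counts and a normalized signal per library (normCPM, per the file headers). Each signal column is the count times a constant and was not used. CASAVA 1.8.4, BWA 0.7.12-r1039 and edgeR are named, per the submitters' processing notes. The reference sequence and how reads were assigned is not given among the sources used here. The N-S+ table held 8649 complete lines, against 32047 in the complete tables, and 1 incomplete line, which was dropped. It lacks the members and was not used further, so their absence from it is no measure of their level in N-S+ grain. Lengths are the authors' deposited columns.

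Counts of the 18308 accessions of the N+S- table were scaled by TMM over the 42 libraries. A quasi-likelihood fit, each group having its own mean, used the 8704 accessions kept by filterByExpr (edgeR 4.0.16, R 4.3.3), with Benjamini-Hochberg adjustment over all of them and calls at an adjusted p under 0.05. The standard error is the log2 change divided by the square root of F. The fit was tested on simulated counts. The complete N-S- table held 1344965 to 5356417 counts per library. Over 42 pairs of replicates, chi-square was at least 2.63 times its expectation under sampling noise, more than 1 library sequenced again would give, so every library counted once. This value does not show that the replicates came from separate samples. The members, lists and tests were chosen with earlier results of these data known. Named genes are the 2 highest and 2 lowest called changes per comparison whose libraries did not overlap or, for means over stages, whose sign was the same at all 4 stages (with no call, the highest and lowest), the 2 largest values of the choice, the genes at its limits, and the most abundant. Others (TmLoc019775, TmLoc014513, and TmLoc013398 and TmLoc024979 at 500 °Cd) were named after their values were seen. Alternatives included DESeq2 1.42.0.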

Additional observations from a re-analysis of the deposited data

Results flagged for a closer look

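TmLoc014513 moved in opposite ways from 300 to 600 °Cd in the S-free treatments. In N-S- grain it had 14.5, 15.7 and 13.4 CPM at 300 °Cd and 7.21, 7 and 8.88 CPM at 600 °Cd, and in N+S- grain 17.5, 19.6 and 16 CPM and then 50.4, 25.5 and 32.8 CPM. In both treatments the stages did not overlap. The N-S- change minus the N+S- change was -1.83 on the log2(CPM + 1) scale. This difference between the treatments was not tested, and N+S- libraries were used to choose the gene.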

How the results depend on the processing

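The number of members depended on the stages, the reading of the floor and the replicates used. It was 49 (30 of the 32 among them) without 500 °Cd, where S supply and lane cannot be told apart, and 50 with the floor on the mean of the 4 N+S- stages, an alternative chosen after seeing the data. It was 38 to 51 with 1 replicate number left out of every group, and 22 to 27 of the 32 were then chosen again. With TMM over the 24 N+S- and N+S+ libraries alone it was 29, all among the 32. The wider list of 50 had 8 calls from 300 to 400 °Cd and 16 from 500 to 600 °Cd. A fit to the compared groups alone had 1 call from 400 to 500 °Cd and 4 from 500 to 600 °Cd, with 23 members tested. The 4 were 0 higher and 4 lower, and TmLoc025736 and TmLoc024738 were not tested on that step. With replicate number 1 left out of every group, the step from 500 to 600 °Cd had 0 higher and 2 lower. With a replicate number or a single library left out, the calls were 13 to 15, 8 to 14, 2 to 5, 0 to 4 and 2 to 12 on the 5 steps in order, 12 to 18 against N+S+ grain, 10 to 17 against N+S- grain and 0 for the change from 300 to 600 °Cd. The cause of these moves was not tested, and the share of all genes called was not counted in the refits. DESeq2, its size factors in edgeR, no expression filter, the complete N-S- table and N-S- grain of 500 °Cd left out (added after seeing the data) kept each count they were run for within 1.5 times. The replicate block gave 16, 13, 5, 4, 11, 17, 16 and 0 calls in the same order. Replicate numbers are not stated to pair samples, and same-numbered deviations correlated at a median of 0.00582 over 273 pairs, with 21 of 42 libraries closest to their own number. With replicate number 1 left out of every group, the falls of TmLoc026182 to 400 °Cd and of TmLoc025544 to 600 °Cd lost their edgeR calls (adjusted p = 0.0521 and 0.0682), and with number 3 left out those of TmLoc026182 and TmLoc023301 to 400 °Cd (adjusted p = 0.115 and 0.144). Of 476 refits of named changes 35 lost their call and 0 changed direction. The 476 include the changes from 300 to 600 °Cd of TmLoc019703 and TmLoc025849, which had no call to lose. Fits in which a named gene was not tested are not among them. Low depth at 400 °Cd, from 803951 counts, limits genes under about 5 CPM.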
